A study of Mus musculus with 62 samples.

Results

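Regions whose H3K27ac was called higher by the authors in quadriceps (Quad) of Pgc1a transgenic mice (mTg) than of wild-type littermates (Wt) are termed hyperacetylated PGC1α-modified regions (hyperacetylated PMRs). The regions described here are the hyperacetylated PMRs that shared at least 1 bp with an H3K27ac peak of soleus (Sol) and none with an H3K27ac peak of untreated Quad. There were 224 such Sol-not-Quad PMRs among 1828 hyperacetylated PMRs (12.3%). Of the other 1604, 697 overlapped peaks of both muscles, 259 overlapped a Quad peak alone and 648 overlapped neither. Among all 55872 regions of the merged Wt and mTg lists, 8.81% had a Sol peak and no Quad peak, and among 844 hypoacetylated PMRs 26 did (3.08%). Read from the Sol side, 229 of 7646 Sol peaks without a Quad peak overlapped a hyperacetylated PMR (3%) and 25 a hypoacetylated one (0.327%), whereas 726 of 26527 Sol peaks with a Quad peak (2.74%) overlapped a hyperacetylated PMR and 258 (0.973%) a hypoacetylated one. The members were chosen by the authors' call of mTg against Wt and by the Sol and Quad peak calls, so these counts and the levels of Wt and mTg below are a description without a test.

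The animals were male mice, given as C57BL/6 in the labels and as C57BL/6J for the purchased mice in the study's methods, and mTg mice carried Pgc1a under the muscle creatine kinase promoter, which expresses it constitutively in skeletal muscle. All groups were sedentary and wild type apart from mTg, which was sedentary and transgenic, and Ex, which was wild type and ran voluntarily on wheels. H3K27ac and H3K4me2 were profiled by ChIP-seq with 2 libraries per group in Sol, Quad, diaphragm (Dia) and extensor digitorum longus (EDL), and in Quad of Wt, mTg, Ex and sedentary controls of Ex (Sed). A Quad library came from a single muscle, whereas Sol, Dia and EDL libraries pooled muscles of several animals, and the age of the mTg mice is not given in the sources used here. These 16 H3K27ac libraries held 11.7 to 24.2 M tags, with 14.9 and 14.1 M in Wt and 11.7 and 12.7 M in mTg. Each peak list is 1 call over both libraries of a group and carries no replicate error. In whole muscle, fewer cells of a type and less acetylation per cell cannot be told apart.

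H3K27ac is deposited on histones at active enhancers and promoters and is removed when these fall silent, whereas H3K4me2 marks enhancers and promoters more broadly. PGC1α is a coactivator without a DNA-binding domain of its own. It is recruited by factors such as the estrogen-related receptors (ERRs), PPARs and MEF2 proteins, and is known for driving mitochondrial biogenesis, fatty acid oxidation and slow-fiber genes in muscle. Sol is rich in slow oxidative fibers, Dia is oxidative, and Quad and EDL are mostly fast and glycolytic.

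The tissue labels were checked at myosin genes. Near Myh7, the slow myosin heavy chain, Sol and Dia had 3 H3K27ac peaks each and the other 6 groups had 0. Near Myh4, a fast myosin heavy chain, the highest peak stood at percentile 96.7 of the Quad list and 3.87 of the Sol list. A description of these PMRs as active in soleus alone did not hold beyond the Sol and Quad lists: 146 of 224 overlapped a Dia peak, 134 an EDL peak, and 131 a peak of the other untreated quadriceps sets, Wt or Sed. They are therefore named by the rule.

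Some members held the 9-base word TCAAGGTCA, a form of the site ERRs bind, or the MEF2 word. A few are printed to show what the word looks like in place, at genes of the pathway lists or at genes chosen later. Sequences are from the RefSeq copy of mm10 (GRCm38), plus strand, 5′ to 3′, with the word in capitals and 10 flanking bases on each side. All 7 lay in introns, of Esrrg, Smyd1, Fads6, Slc25a12, Tbc1d4, Prkce and Pank1 in this order, the sixth being nearest to Epas1. The fourth is within a soft-masked repeat and the others are not. Smyd1, Fads6, Slc25a12 and Pank1 were chosen after their values were seen.

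Esrrg, ERR word, chr1:187763623-187763651: gaaaacggttTCAAGGTCAccagcatata
Smyd1, ERR word, chr6:71241408-71241436: ttccaaatagTCAAGGTCAttttgagctg
Fads6, ERR word, chr11:115292672-115292700: taacccttgcTCAAGGTCAgggaaaaccg
Slc25a12, ERR word, chr2:71361655-71361683: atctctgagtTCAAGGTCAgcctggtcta
Tbc1d4, MEF2 word, chr14:101573265-101573294: ctgagcgaagCTAAAAATAGtttcctctct
Epas1, MEF2 word, chr17:86588972-86589001: caagagtcagCTATAATTAGaacccctttg
Pank1, MEF2 word, chr19:34862128-34862157: ctcctgaattCTATTTATAGaaacaaacag

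Most members were distal. In the authors' annotation 131 were intragenic (58.5%, Wilson 95% interval 51.9 to 64.7), of which 115 lay in introns, 83 were intergenic (37.1%) and 10 were promoters (4.46%, 2.44 to 8.02). Promoters made up 5.05% of the other hyperacetylated PMRs, 6.11% of the 7646 Sol peaks without a Quad peak and 13.4% of all Sol peaks. Intervals on shares are binomial over regions, which do not stand for animals, and hold no other error. A transcription start site (TSS) lay within 1000 bp of 27 members, within 10000 bp of 72 and within 100000 bp of 197. The members had 213 different nearest genes, and 196 members had a protein-coding one. For 34 of the 131 intragenic members the nearest gene was not the gene they lay in. The nearest Quad peak was at a median of 10329.5 bp (lowest 340 bp), and 10 members had none within 100000 bp. Median width was 1525.5 bp, below the 2472 bp of PMRs with peaks of both muscles and above the 1126 bp of Sol peaks without a Quad peak.

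The rule's edges were narrow. The members sharing the fewest bases with a Sol peak were near Gm2447 (37 bp), Osbpl5 (128 bp) and Pik3r1 (147 bp), with mTg minus Wt differences of 0.46, 1.03 and 0.55 on the log2 scale. The regions left out by the fewest bases of a Quad peak were near Uaca (7 bp), Snord104 (175 bp) and Ppm1a (211 bp), with differences of 0.78, 0.90 and 0.56. Over all members the Sol peak covered a median of 72.6% of the region.

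Levels in Wt and mTg are log2 normalized tags per region, on the scale of the deposited hyperacetylated list and not divided by width. They are taken to be DESeq2's regularized logarithm, which shrinks differences of low regions, so a difference under 1 here does not mean less than the 2-fold that the authors' call required. The median member stood at 5.38 and 5.40 in the 2 Wt libraries and at 6.08 and 6.06 in the 2 mTg libraries. The mean over members was 5.44 ± 0.046 in Wt and 6.17 ± 0.0078 in mTg (SD, n = 2). Both mTg libraries were above both Wt libraries at each of the 224 members, as at all 1828 hyperacetylated PMRs (100%), which follows from how the list was made. The median difference was 0.71, with a range of 0.40 to 1.52, and 27 members reached 1. PMRs with peaks of both muscles had a median difference of 0.86, those with a Quad peak alone 0.73, and those with neither 0.61. Across members, the difference went with width (Spearman's rho 0.678, n = 224) and with the Wt level (0.682), which itself went with width (0.754), all from the same libraries. Its rho with the rank of the Sol peak was 0.0639.

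The 10 members with the largest differences (1.25 to 1.52) had 1 gene of the lists among them, Cidea. The largest difference of means was near 3200001D21Rik, a noncoding gene, in an intron of Adck1 (chr12:88378999-88381744), at 5.63 and 6.03 in Wt and 7.17 and 7.52 in mTg. This region overlapped an EDL peak and no Dia peak. The other 9 were near Hsbp1l1, Intu, Phactr1, Scpep1os, Rreb1, Strc, Dad1, Homer2 and Cidea, and all of these 9 overlapped a Dia peak. Rreb1, a zinc finger transcription factor, had an intergenic member that stood at 6.07 and 6.04 in Wt and 7.42 and 7.43 in mTg. Homer2, a scaffold protein of calcium signalling, had an intronic member with peaks in Dia, EDL, Wt, Sed and Ex, at 6.78 and 7.04 in Wt and 8.32 and 8.03 in mTg. Cidea, a lipid droplet protein, had the only promoter among the 10 (chr18:67342444-67344318), at 5.93 in both Wt libraries and 7.25 and 7.12 in mTg. No library of mTg fell within the range of Wt at these regions.

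**Figure D1:**
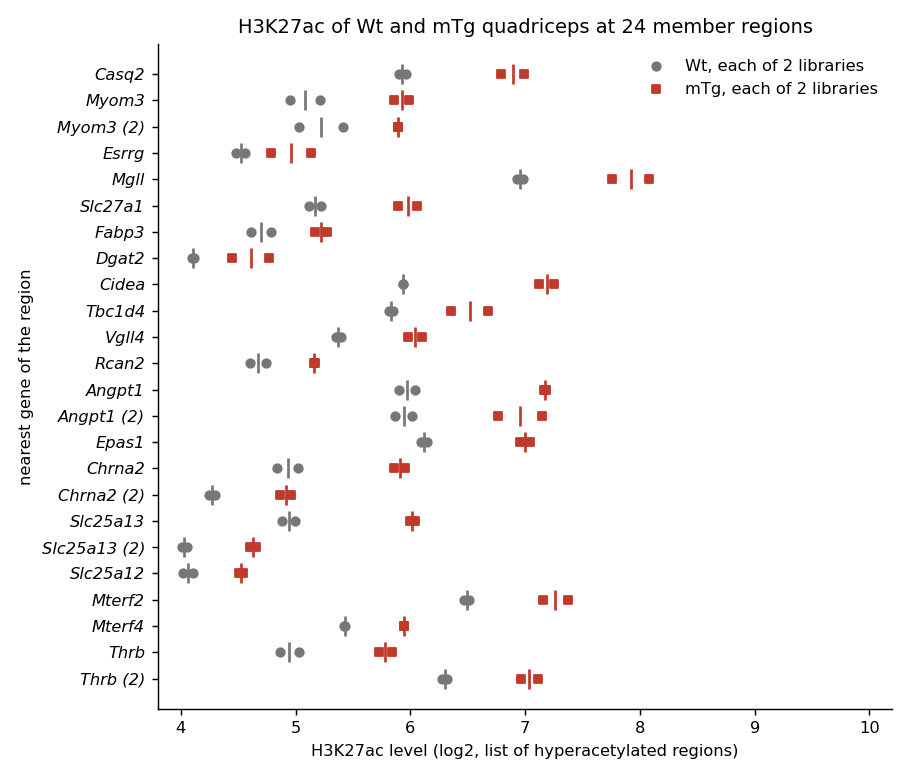
H3K27ac level (log2 normalized tags, horizontal axis) of 24 members in each Wt (gray circles) and mTg (red squares) library, with a tick at each group's mean, n = 2. A number in brackets marks a gene's other member, with the smaller difference; 13 of the members have a gene of the lists, and at each region both mTg libraries lie to the right of both Wt libraries.

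In Sol, these peaks ranked low to middling. Each list was normalized on its own, so Sol levels are given as the percentile of a peak's log2 level per kb within the 34173 peaks of the Sol list. The percentile is that of the whole Sol peak, which can reach beyond the member. Members' Sol peaks had a median percentile of 38.0 (quartiles 21.4 and 57.3), above the 21.6 of all Sol peaks without a Quad peak and below the 59.4 of PMRs with peaks of both muscles. Of 224, 76 stood above percentile 50, 10 above 75 and 1 above 90. That 1 was near Mterf2, a member of the mitochondrial transcription termination factor family, in an intron 403 bp from the TSS (percentile 91.5), at 6.52 and 6.47 in Wt and 7.37 and 7.15 in mTg. Its Sol peak was 501 bp wide, and division by width raises the rank of so narrow a peak. The others of the 10 highest were near Cxcl11 (86.5), Ide (83.6), Fabp3 (81.3), Zfp11, Fam228b, Depdc5, 9830132P13Rik, Zfp961 and D930015E06Rik (75.6). The region nearest to Cxcl11, a chemokine gene, lay in an intron of Art3 and stood at 7.57 and 7.43 in Wt and 8.38 and 8.42 in mTg. Ide encodes insulin-degrading enzyme, and its intronic member stood at 5.66 and 5.69 in Wt and 6.30 and 6.36 in mTg. Of these 10 members, 9 had an EDL peak, 7 a Dia peak and 8 a Wt or Sed peak, and their differences ran from 0.48 to 0.92.

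**Figure D2:**
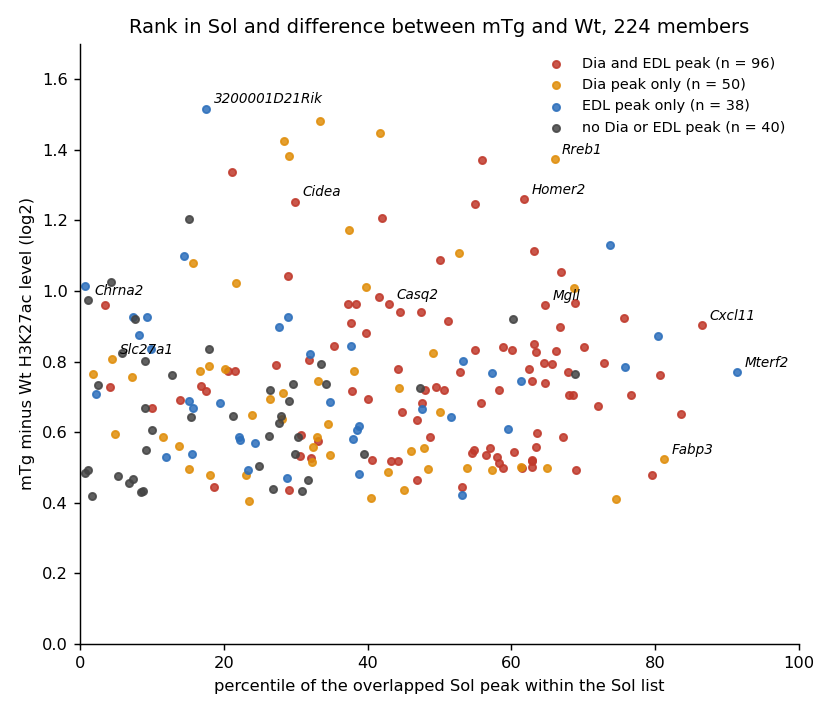
mTg minus Wt H3K27ac difference (log2, vertical axis) of the 224 members against the percentile of their Sol peak within the Sol list (horizontal axis), coloured by overlap with Dia and EDL peaks. The rho of the difference with Sol rank is 0.0639, and the 40 members without a Dia or EDL peak have a median percentile of 16.6.

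Dia and EDL were the muscles that the rule did not use, and members overlapped Dia peaks somewhat more often, with overlapping intervals. A Dia peak was overlapped by 146 members (65.2%, 58.7 to 71.1), against 52.8% of the other hyperacetylated PMRs and 40.9% of Sol peaks without a Quad peak. An EDL peak was overlapped by 134 (59.8%, 53.3 to 66), against 57.1% and 42.8%. The Dia interval lay above both backgrounds, whereas the EDL interval included that of the other PMRs. These other PMRs pool unlike sets. A Dia peak was overlapped by 87.8% of PMRs with peaks of both muscles, 47.9% with a Quad peak alone and 17.1% with neither. For EDL these shares were 91.7%, 62.9% and 17.6%. The Dia share of members was therefore below that of PMRs with peaks of both muscles. With a region counted only where its centre lay inside a peak, a measure chosen after the data were seen, Dia held 57.6% against 47.1% and 35.6%, and EDL 54.9% against 51.1% and 38.0%. Members are wider and higher in Sol than the Sol peaks they were set against, and the part of this in the shares was not tested beyond bands of Sol rank. Below percentile 25, 26 of 66 members had a Dia peak (39.4%, 28.5 to 51.5) and 25.8% of Sol peaks without a Quad peak did. From 25 to 50 the Dia shares were 68.3% and 52.4%, and above 50 they were 84.2% and 72.5%. The EDL shares were 40.9% and 25.5%, then 52.4% and 55.5%, then 84.2% and 80.0%. Members with a Dia peak outnumbered those with an EDL peak only from percentile 25 to 50 (56 and 43 of 82). Below 25 they were 26 and 27 of 66, and above 50 they were 64 of 76 each.

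**Figure D3:**
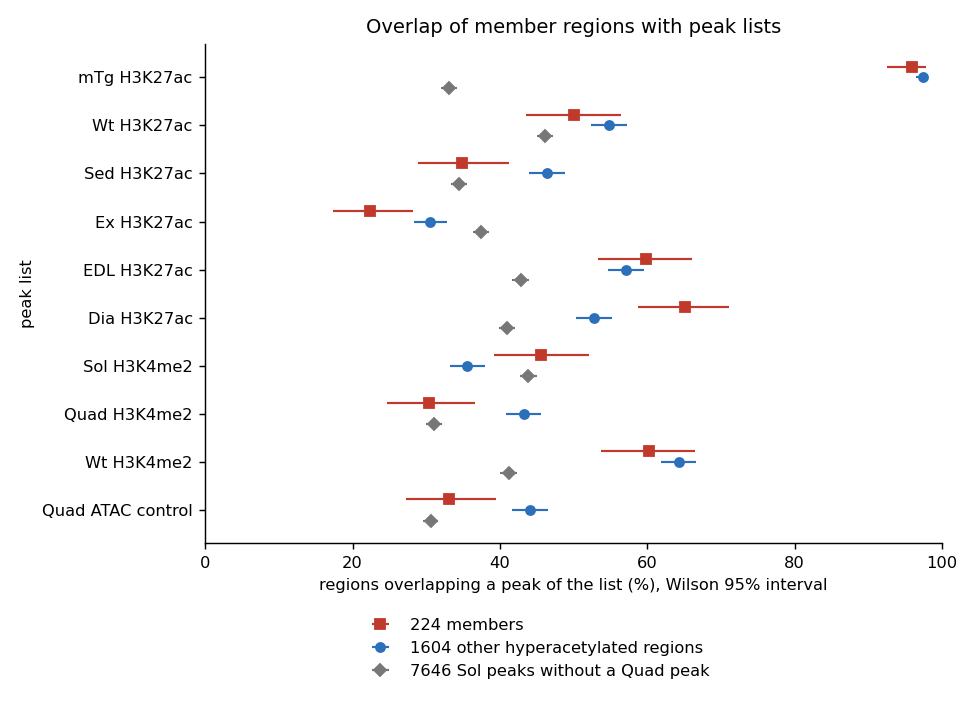
Share of regions overlapping each peak list by at least 1 bp (%, horizontal axis, Wilson 95% intervals as bars) for 224 members (red squares), 1604 other hyperacetylated PMRs (blue circles) and 7646 Sol peaks without a Quad peak (gray diamonds). The Dia share of members (65.2%) is above both comparison sets, and their Ex share (22.3%) is below both. The other PMRs pool sets with Dia shares from 17.1% to 87.8% and Ex shares from 3.70% to 58.8%.

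Both Dia and EDL peaks were overlapped by 96 members, Dia alone by 50, EDL alone by 38 and neither by 40. Median Sol percentile was 54.6 where both had a peak, 33.3 with Dia alone, 28.8 with EDL alone and 16.6 with neither. In the same order, median width was 1829.5, 1378.5, 1613 and 1256 bp, and median differences between mTg and Wt were 0.73, 0.64, 0.70 and 0.64.

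For 131 members the absence from the Quad list did not extend to the other untreated quadriceps sets. A Wt peak was overlapped by 112 members (50%), against 54.9% of the other hyperacetylated PMRs and 46.1% of Sol peaks without a Quad peak. A Sed peak was overlapped by 78 (34.8%; 46.4% and 34.5%). Both had a peak at 59 members, Wt alone at 53, Sed alone at 19 and neither at 93 (41.5%). In mTg, 215 members had a peak (96.0%), near the 97.4% of the other PMRs and above the 33.1% of Sol peaks without a Quad peak, a share that the rule's own contrast enters. Ex peaks were overlapped by 50 members (22.3%, 17.4 to 28.2), below the 30.5% of the other PMRs and the 37.4% of Sol peaks without a Quad peak. Among those PMRs the Ex share was 58.8% with peaks of both muscles, 21.2% with a Quad peak alone and 3.70% with neither. A low Ex share was therefore not particular to members.

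The 93 members without a peak in any of the 3 untreated quadriceps sets were the lower ones. Their median difference was 0.59 and their median width 1263 bp, against 0.74 and 1870 bp in the other 131. A Dia peak was overlapped by 52 of them (55.9%, 45.8 to 65.6) and an EDL peak by 34 (36.6%, 27.5 to 46.7). Of 3322 Sol peaks with no peak in any of these sets, 25.3% overlapped a Dia peak and 20.02% an EDL peak. Of the other 131 members, 94 (71.8%) had a Dia peak and 100 (76.3%) an EDL peak.

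**Figure D4:**
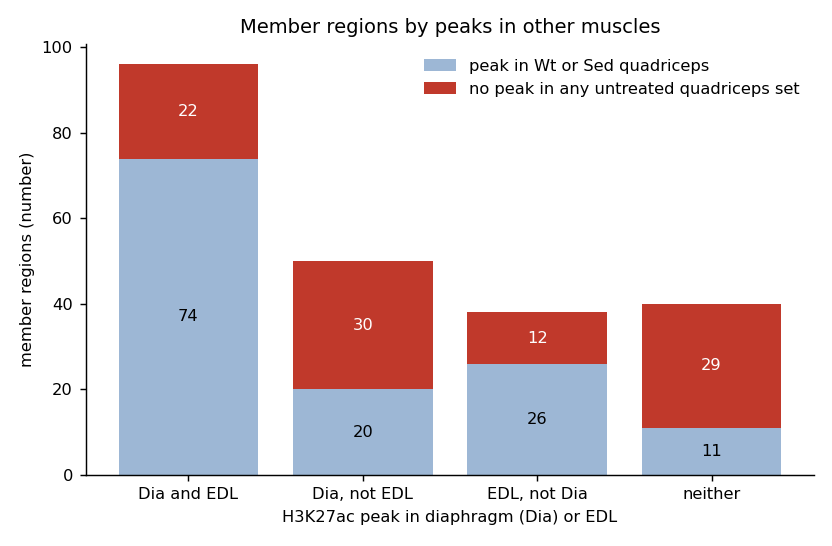
Number of members (vertical axis) with H3K27ac peaks in both Dia and EDL, in Dia alone, in EDL alone and in neither, divided by a peak in Wt or Sed quadriceps (blue) or none in any untreated quadriceps set (red). Members without an untreated quadriceps peak number 22, 30, 12 and 29 in the 4 bars.

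Of 224 members, 29 had an H3K27ac peak in Sol and mTg muscle but none in Dia, EDL, Quad, Wt or Sed, apart from 1 near St5 that also had an Ex peak. They were 29 of the 93 members without a peak in any untreated quadriceps set. Among the 3322 Sol peaks without such a peak, 2087 had no Dia or EDL peak, so this lack was not particular to members. The Sol peaks of the 29 members ranged from percentile 0.708 near Dnah17 to 68.8 near Dkk1. They included an intron of Angpt1, an intron of Esrrg and 2 members at Chrna2. Chrna2 encodes a neuronal nicotinic acetylcholine receptor subunit and was singled out after its values were seen. Its promoter member (chr14:66139731-66141507) stood at 5.02 and 4.84 in Wt and 5.95 and 5.86 in mTg, with its Sol peak at percentile 1.00, near the bottom of the list. Its intronic member stood at 4.30 and 4.25 in Wt and 4.87 and 4.96 in mTg. No H3K27ac peak had Chrna2 as its nearest gene in Dia, EDL, Quad, Wt, Sed or Ex, and 2 did in both Sol and mTg.

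A mark and an assay that the rule did not use were read next. A Sol H3K4me2 peak was overlapped by 102 members (45.5%, 39.1 to 52.1), above the 35.6% of the other PMRs and near the 43.9% of Sol peaks without a Quad H3K27ac peak. A Quad H3K4me2 peak was overlapped by 68 (30.4%), below the 43.2% of the other PMRs and near the 31% of those Sol peaks. In the Wt list 135 members had an H3K4me2 peak (60.3%, 53.7 to 66.5; 64.3% and 41.2%). In the library set labelled mTg 43 did (19.2%; 21% and 23.7%), and 93 had an H3K4me2 peak in Wt and none in mTg, against 1 the other way. One of those mTg libraries held 6.41 M tags, the fewest of the histone libraries, and the mTg H3K4me2 list held 27527 peaks against 46944 in Wt, so the part of depth in this count was not tested. A lower share in mTg was not particular to members. Over all merged Wt and mTg regions, a Wt H3K4me2 peak was overlapped by 55.4% and an mTg one by 35.3%. The paper reported few regions that differed in H3K4me2 between mTg and control Quad. In untreated Quad, ATAC-seq peaks, which mark accessible chromatin, were overlapped by 74 members (33.0%, 27.2 to 39.4), below the 44.1% of the other PMRs and near the 30.6% of Sol peaks without a Quad peak. Across PMRs with peaks of both muscles, a Quad peak alone and neither, ATAC shares were 67.3%, 47.1% and 17.9%. In that order, Sol H3K4me2 shares were 59.7%, 26.3% and 13.4%, and Quad H3K4me2 shares 63.7%, 53.7% and 17.0%. Quad H3K4me2 or accessibility was called at 109 members and neither at 115. Of the 10 promoter members, 9 had a Quad H3K4me2 peak and 5 an ATAC peak. In the other H3K4me2 lists, members overlapped peaks of EDL at 98 (43.8%; 44.5% and 39.4%), Dia at 79 (35.3%; 35.8% and 31.2%), Sed at 60 (26.8%; 34% and 31.7%) and Ex at 54 (24.1%; 30.5% and 30.1%). Across the 8 H3K4me2 lists, 64 members had no peak and 32 had one in each.

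Genes of slow and fast fibers were rare among members as in the sets they came from. Of the slow contraction and calcium list, 1 member (0.446%) was near Casq2, which binds calcium in the sarcoplasmic reticulum of cardiac and slow muscle. All hyperacetylated PMRs held 4 regions of that list (0.219%), and 23 Sol peaks without a Quad peak (0.301%) were nearest to its genes. The Casq2 member (chr3:102098695-102101016, intron) stood at 5.96 and 5.90 in Wt and 6.99 and 6.79 in mTg, with Sol percentile 43.0 and peaks in Dia, EDL, Sed and Ex. No hyperacetylated PMR, member or not, was near a slow fiber marker such as Myh7, and 8 Sol peaks without a Quad peak (0.105%) were. The fast contraction list had 0 members, 1 hyperacetylated PMR (0.0547%) and 6 Sol peaks without a Quad peak (0.0785%).

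Of the fatty acid list, with 43 entries, 4 regions were members (1.79% of members). It held 26 of all hyperacetylated PMRs (1.42%) and 16 of the Sol peaks without a Quad peak (0.209%), 2 of which overlapped a hyperacetylated PMR. Mgll, which encodes monoacylglycerol lipase, had an intronic member that stood at 6.93 and 6.98 in Wt and 8.08 and 7.76 in mTg, with peaks in every H3K27ac list but Quad. Slc27a1, a fatty acid transport protein of muscle, had one at 5.12 and 5.22 in Wt and 6.06 and 5.90 in mTg, with a Sol peak at percentile 4.48 only. Fabp3 encodes the fatty acid binding protein of heart and oxidative muscle, and its member, at the end of Zcchc17 (chr4:130315026-130316124), stood at 4.61 and 4.78 in Wt and 5.27 and 5.17 in mTg. Its Sol peak, at percentile 81.3, was 9731 bp wide and shared 475 bp with the member, so this rank is that of the wider peak, and its Dia peak stood at percentile 85.3, with none in EDL, Wt or Sed. Dgat2, which completes triglyceride synthesis, had an intronic member at 4.11 and 4.10 in Wt and 4.77 and 4.45 in mTg, with percentiles 61.4 in Sol and 71.5 in Dia. Slc27a1, Fabp3 and Dgat2 shared this pattern of a Dia peak and no EDL, Wt or Sed peak, while Mgll did not. No member was near a gene of the citric acid cycle and respiratory chain, which held 20 hyperacetylated PMRs (1.09%) and 18 Sol peaks without a Quad peak (0.235%). The glucose list held 1 member (0.446%), 12 hyperacetylated PMRs (0.656%) and 12 Sol peaks without a Quad peak (0.157%). The member lay in an intron of Tbc1d4, a regulator of glucose transporter traffic, at 5.82 and 5.85 in Wt and 6.68 and 6.35 in mTg.

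Among regulators, the coactivator and partner list held 1 member (0.446%), 11 hyperacetylated PMRs (0.602%) and 39 Sol peaks without a Quad peak (0.51%). The member lay in an intron of Esrrg, which encodes ERRγ (chr1:187762707-187763782), and is the region of the first sequence above. It stood at 4.56 and 4.48 in Wt and 4.79 and 5.14 in mTg, a difference of 0.44, near the lower end of members, with a Sol peak at percentile 26.8 and none in Dia, EDL, Wt or Sed. The fiber-type transcription and calcineurin list held 2 members (0.893%), 17 hyperacetylated PMRs (0.93%) and 68 Sol peaks without a Quad peak (0.889%), so its share was near background. The 2 members were near Rcan2, a calcineurin regulator, with a difference of 0.49, and near Vgll4, a cofactor of TEAD factors, in an intron of Atg7, with 0.67.

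The circulation list held 3 members (1.34%), 14 hyperacetylated PMRs (0.766%) and 18 Sol peaks without a Quad peak (0.235%). Both intronic members of Angpt1, a ligand of the endothelial receptor Tie2, were among the larger differences, at 6.04 and 5.90 in Wt and 7.18 and 7.16 in mTg for one (chr15:42608528-42611131) and 6.02 and 5.87 in Wt and 6.76 and 7.15 in mTg for the other. The first had no peak in Dia, EDL, Wt or Sed, and the second had peaks in Dia and Wt. The third was near Epas1, a hypoxia-inducible factor gene, in an intron of Prkce, at 6.14 and 6.09 in Wt and 6.96 and 7.04 in mTg. The lists for lactate, ketone, pyruvate and branched-chain amino acids and for the neuromuscular junction had 0 members. They held 3 and 1 hyperacetylated PMRs (0.164% and 0.0547%) and 15 and 16 Sol peaks without a Quad peak (0.196% and 0.209%).

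Markers of other cells in whole muscle were rare among members and among all hyperacetylated PMRs. Endothelial, leukocyte, fibroblast, pericyte, satellite and Schwann cell lists had 0 members each, and 1, 0, 0, 0, 1 and 1 hyperacetylated PMRs. Of Sol peaks without a Quad peak they held 0.248%, 0.105%, 0.17%, 0.0916%, 0.105% and 0.0785%, so 0 of 224 is near background. By qPCR, the paper reported higher macrophage and endothelial markers in mTg muscle. The part of other cells in the members' levels was not tested. The adipocyte list had 1 member (0.446%), the Cidea promoter, of 3 PMRs (0.164%) near 2 genes, and 0.0392% of Sol peaks without a Quad peak. The part of adipocytes in the level of this promoter was not tested. Of genes nearest to 3 members, D930015E06Rik was the one found, with 2 of its 3 in introns of Tmem131l.

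Few members were also modified by exercise, as were few regions of the comparison sets. Of 224, 1 (0.446%) overlapped a hyperacetylated exercise-modified region (EMR), near Jam3, a junctional adhesion molecule. In comparison, 0 of the other PMRs, 0.589% of Sol peaks without a Quad peak and 0.467% of all merged Wt and mTg regions did. The Jam3 region stood at 4.14 and 4.01 in Sed and 4.62 and 4.51 in Ex, and at 3.92 and 3.90 in Wt and 4.38 and 4.28 in mTg. A further 5 (2.23%, 0.957 to 5.12) overlapped hypoacetylated EMRs, which 3.87% of the other PMRs and 0.798% of Sol peaks without a Quad peak did. This interval included the share of the other PMRs. These were near 1700027A15Rik, Amigo2, Rsph9, Gm12530 and Gm20745. Near Gm12530 the level fell by 0.88 with exercise, from 6.92 and 6.95 in Sed to 6.20 and 5.91 in Ex, and stood at 6.57 and 6.86 in Wt and 7.54 and 7.75 in mTg. The other 4 fell by 0.58 to 0.85 in Ex and were 0.63 to 0.88 higher in mTg. The lists from which these regions came fixed the direction of both contrasts. At the region near 1700027A15Rik the exercise-modified region was much the wider of the pair.

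**Figure D5:**
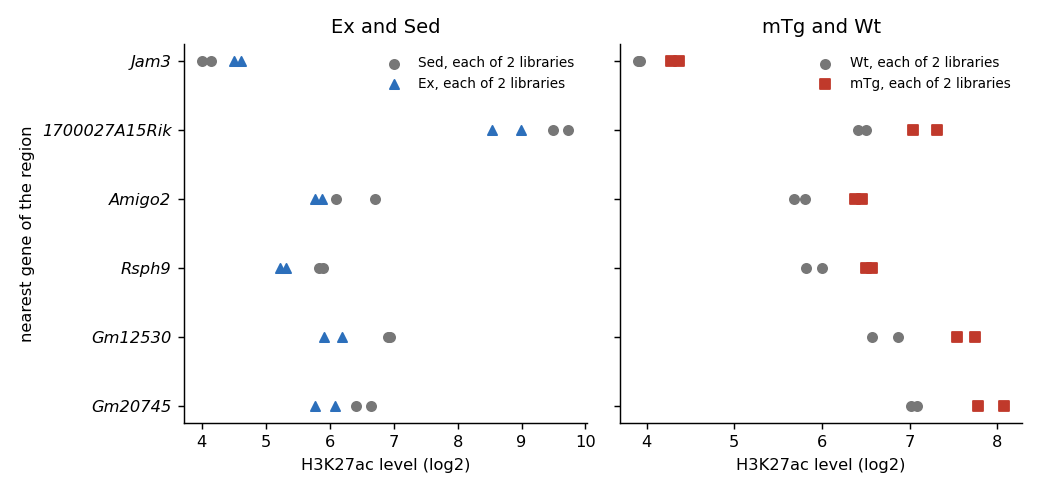
H3K27ac levels (log2 normalized tags, horizontal axes, each panel on the scale of its own list) at the 6 members that overlapped exercise-modified regions, in each of 2 libraries of Sed and Ex (left) and of Wt and mTg (right). Ex lies above Sed near Jam3 and below it at the other 5, while mTg lies above Wt at all 6. These directions were fixed by the lists from which the regions came.

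Peaks of the mediator subunit MED1 and of the transcription factor NFAT, from 1 library per muscle, were rare in members and comparison sets alike. MED1 of Quad fell in 3 members (1.34%), near Ankrd44, Kctd1 and Cxcl11, and MED1 of Sol in 3 (1.34%), near Ets2, Rasd2 and Disc1. These compare with 0.772% and 1.35% of Sol peaks without a Quad peak and 2.12% and 2.49% of the other PMRs. MED1 of Dia and EDL fell in 0, with 0.745% and 0.183% of those Sol peaks and 1.12% and 0.374% of the other PMRs. NFAT of Sol fell in 6 (2.68%, 1.23 to 5.72), near Ddx18, Lgsn, Mir6344, Aars2, 4930556G01Rik and Katnal1, against 2.17% of those Sol peaks and 3.05% of the other PMRs. NFAT of Quad fell in 0, with 0.0392% of those Sol peaks and 0 of the other PMRs. The NFAT list held 39661 peaks in Sol and 485 in Quad, and MED1 lists ran from 834 in EDL to 4070 in Sol. Counts are therefore not compared between muscles.

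The ERR word TCAAGGTCA was searched on both strands of every region. It was found in 21 members (9.38%, 6.21 to 13.9), in 10.5% of the other PMRs, in 4.58% of Sol peaks without a Quad peak and in 0.423% of 32851 RefSeq promoter windows, which are shorter. Wider regions hold more words, and per kb of sequence the counts were 0.0528, 0.0515 and 0.0359 in members, other PMRs and Sol peaks. In the central 1000 bp, 5.36% of members had it, against 5.30% of the other PMRs and 3.13% of the Sol peaks. Soft-masked repeats held 10 of the 21 words in members (47.6%), against 35.6% and 40.1% in the other sets. The shorter word AGGTCA, which the ERR word contains, was in 75.9% of members, 78.4% of other PMRs and 57.5% of those Sol peaks, at 0.865, 0.878 and 0.762 per kb. The MEF2 word was in 16 members (7.14%, 4.44 to 11.3), below the 11.3% of the other PMRs and above the 4.37% of the Sol peaks, with 0.557% of promoter windows, and per kb at 0.0403, 0.052 and 0.0344. In the central 1000 bp its shares were 6.70%, 7.04% and 3.44%. Other words were CAGCTG, in 62.9% of members and 62.8% and 52.7% of the comparison sets, TGGAAA (75.9%; 79.9% and 68.7%), TGAGTCA (30.4%; 34.0% and 25.3%) and GGAATG (55.8%; 66% and 51.1%). Members with the ERR word had a median difference of 0.73 (n = 21) and those without it 0.71 (n = 203), at median widths of 1965 and 1525 bp. Median GC content was 46.1% in members, 46.0% in the other PMRs and 46.8% in the Sol peaks.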

How the data were processed

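The authors aligned ChIP-seq reads to mm10 with Bowtie (1.2 in the submitters' processing notes), kept 1 tag per position in HOMER, and called histone peaks over both replicates against input with DESeq2 at FDR 0.05 and 2-fold. Tag columns of the deposited lists are log2 values, taken to be DESeq2's regularized logarithm within each list, and are not tag counts. The deposited lists also hold log2 fold over input and p-values, used here only for stricter thresholds. Fold changes and p-values of mTg against Wt and Ex against Sed are the authors' own findings and were not used. The deposited ATAC control list, from pooled tags, gives a signal in scaled tags, and any transposase offset is not given in the sources used here. Factor lists hold a peak score of the authors' caller. The 5 interval lists in another build were not used here.

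Overlaps (at least 1 bp), Wilson intervals, percentiles and word counts were computed with Python 3.11.15, pandas 2.3.3, numpy 2.4.6, scipy 1.17.1, bedtools 2.31.1 and samtools 1.23.1. Overlap calls, covered shares, Wilson bounds and the finding of planted words were checked on simulated data, and percentiles and numbers of words were not. Promoters, as the authors annotated them, lie between 1000 bp before and 100 bp after a TSS. Genes named were the 10 largest differences, the 10 highest Sol levels, genes of 10 pathway and 9 marker lists, genes with 3 members, edge regions and members with exercise or factor overlap; others are named as chosen later. Members and lists were chosen with earlier results of these data known. No test was run, since the rule used the contrast and each other list is 1 call. Wt and mTg were littermates by the methods, but no source ties replicate numbers to a litter.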

Additional observations from a re-analysis of the deposited data

How the results depend on the processing

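Of 37 alternatives over 13 results, 16 stayed within the replicate spread, the Wilson interval or 1.5 times the count and 21 moved. No turn of direction was possible, since counts, shares and percentiles have no sign and the choice of members fixed the sign of the differences. The 224 members became 93 with no peak in any of 3 untreated Quad sets and 27 with a difference of at least 1. With 50% of the region covered, shares fell to 54.9% (Dia), 50.9% (EDL), 28.1% (Wt), 32.1% (Sol H3K4me2) and 20.5% (Quad H3K4me2). With peaks of at least 4-fold over input they were 56.25%, 51.3%, 92.0% (mTg), 38.4% and 23.7% for Dia, EDL, mTg, Sol H3K4me2 and Quad H3K4me2. In members without an untreated Quad peak they were 55.9% (Dia) and 36.6% (EDL), with a median difference of 0.59. By region centre, Dia was 57.6% and Wt 37.1%. The ERR word was in 5.36% by central 1000 bp and in 4.91% outside soft-masked repeats. The last and the centre rule were added after the data were seen. The median Sol percentile was 33.6 without division by width. Leaving out 1 library gave median differences of 0.66 to 0.73 and Sol percentiles of 37.0 to 39.1. The cause of these shifts was not tested. No paired analysis was possible because the results come from no test, and replicate numbers of Wt and mTg mark no shared animal.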

Other observations

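The genes below lie outside the lists and were singled out after their values were seen, so they are examples and no count of a group. The aspartate-glutamate carriers Slc25a13 and Slc25a12 had 3 members between them, all in introns. The Slc25a13 member 499 bp from the TSS stood at 4.88 and 4.99 in Wt and 5.99 and 6.04 in mTg, with a Dia peak and none in EDL, Wt or Sed. The Slc25a12 member stood at 4.11 and 4.02 in Wt and 4.55 and 4.51 in mTg, with its Sol peak at percentile 7.30. Mterf4, of the same family as Mterf2, had a promoter member at 5.43 in both Wt libraries and 5.95 in both mTg libraries, with peaks in every H3K27ac list but Quad. Lrpprc, a factor of mitochondrial RNA stability, had an intergenic member with mTg minus Wt at 0.41, with percentiles of 74.5 in Sol and 83.8 in Dia and no EDL peak.

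Myom3, an M-band protein, had 2 members, 1 in its own intron 125 bp from the TSS and 1 in an intron of Il22ra1. The former stood at 4.96 and 5.21 in Wt and 5.86 and 5.99 in mTg, with percentiles of 70.1 in Sol, 88.9 in Dia and 61.9 in EDL. Smyd1, a muscle histone methyltransferase, had an intronic member at 5.27 and 5.24 in Wt and 6.03 and 5.94 in mTg. This member overlapped a Wt peak and no Dia or EDL peak, with its Sol peak at percentile 2.46. Thrb, the thyroid hormone receptor beta gene, had 2 members without a Dia or EDL peak. The intronic one overlapped a Wt peak and stood at 6.32 and 6.28 in Wt and 7.11 and 6.96 in mTg. The promoter of Bdnf, a neurotrophin, stood at 4.70 and 4.80 in Wt and 5.6 and 5.56 in mTg, with a Dia peak and no EDL peak. At these regions both mTg libraries were above both Wt libraries, which the choice of members fixed.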
